A study of Mus musculus with 6 samples.

Results

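Long noncoding RNA (lncRNA) genes whose expression differed between RENCA cells carrying an AQP1 transgene and their empty-vector controls, and whose counts were high enough to rest on, are described here together with the genes around them. RENCA is a mouse renal adenocarcinoma cell line. The 6 samples comprised 3 of cells transduced with a lentivirus that carries the mouse Aqp1 coding sequence (oe-AQP1) and 3 of cells transduced with the empty vector (oe-NC). Both groups carried the puromycin resistance of the vector, were placed in 2 µg/mL puromycin 48 h after transduction for 14 days, were kept as bulk populations rather than single clones, and were sampled at 2 weeks. The labels put all 6 samples in 1 batch and call the 3 samples of a group biological replicates without saying whether they came from separate cultures, so that p-values measure the spread between these samples.

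The genes were chosen from the same comparison that they describe. A lncRNA was taken where its mean expected count was at least 20 in the higher group, where the ratio of the group means in counts per 1e6 counts (CPM, a gene's count divided by its sample's total and multiplied by 1e6) was at least 2 or at most 0.5, and where the CPM values of the 3 oe-AQP1 samples did not overlap those of the 3 oe-NC samples. Of 32802 lncRNA genes in the deposited table, 1942 reached 20 counts and 179 met the whole rule, 168 of them higher and 11 lower in oe-AQP1. That is 9.22% of the lncRNAs with 20 counts, 8.65% higher and 0.566% lower, and the same 2 criteria held for 3.89% of the protein-coding genes with 20 counts. The lower count rose whichever sample was left out. The rule then took 17, 23 and 15 lower lncRNAs without oe-AQP1 replicates 1, 2 and 3, and 14, 18 and 21 without oe-NC replicates 1, 2 and 3. The higher count ran from 168 to 190. With fewer samples in a group the CPM values overlap less easily, so a rise does not by itself single out a library. Because these values chose the genes, the levels and ratios of the 179 lncRNAs are given below as a description, without a test.

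Most lncRNAs are transcribed and spliced like messenger RNAs but carry no long conserved reading frame, and they are named by a clone, a number or a neighboring gene where no function is known. Many share a promoter region with a protein-coding gene or run antisense through it, so that a description of a lncRNA is incomplete without its neighbors. Type I and type II interferons induce a large set of genes, among them the guanylate-binding proteins, the immunity-related GTPases, the Schlafen genes, the MHC class I genes with their peptide transporters, and the cytosolic RNA sensors, and several of these families lie in tandem clusters in the mouse genome. Many of these genes have an interferon-stimulated response element, which contains GAAA repeats, in their promoters.

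Library totals ranged from 18385714 to 21920899 expected counts, so that 20 counts corresponded to between 0.912 and 1.09 CPM. Aqp1 itself was counted 7713, 8545 and 7838 times in the oe-AQP1 samples and 41, 25 and 45 times in the oe-NC samples. Of the oe-NC samples, replicate 1 stood apart: the chi-square statistic per gene was 9.55 and 11.1 against the other oe-NC replicates, while the remaining 4 within-group pairs gave 1.71 to 2.04. Without that sample 182 lncRNAs met the rule, 155 of them shared with the 179. Of 8 renal epithelial markers 7 had counts, Epcam being at 0 in all samples, and their summed level was 724 to 749 CPM in oe-AQP1 and 838 to 926 CPM in oe-NC. The summed leukocyte and macrophage markers stood at 47.9 to 51.3 CPM and 55.2 to 58.5 CPM, with Adgre1 at 0 throughout, and 1 of them, the macrophage receptor gene Csf1r, was called lower in the limma-voom fit described below (log2FC -1.51 ± 0.13, adjusted p = 1.31e-05). The endothelial markers summed to 0.911 to 1.6 and 0.761 to 1.45 CPM, with Kdr at 0, and the fibroblast markers to 44.1 to 45.2 and 33.4 to 38.8 CPM. The part of these differences in the results below was not tested. In bulk samples, fewer cells expressing a gene and less RNA per cell cannot be told apart.

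Neighboring genes and the background were tested with limma-voom over all 15522 genes that passed a low-count filter, and a gene is said below to be called, to rise or to fall where its Benjamini-Hochberg adjusted p was under 0.05 and its log2 fold change beyond 1 in either direction. A gene that missed either criterion is said not to pass. In that fit 812 genes (5.23%) were called, among them 237 of 2826 lncRNAs (8.39%; 7.64% higher and 0.743% lower) and 506 of 11847 protein-coding genes (4.27%; 3.43% higher and 0.844% lower). Without oe-NC replicate 1 the lncRNAs called lower numbered 39 rather than 21. Of the 179 chosen lncRNAs 172 were called, 161 higher and 11 lower, a count that the choice itself largely fixes. Without the fold threshold 32.5% of the genes passed. The median log2 fold change over the 2826 lncRNAs was 0.13 and that over the protein-coding genes was -0.017. In each sentence that follows, values are listed for replicates 1, 2 and 3 of oe-AQP1 and then for replicates 1, 2 and 3 of oe-NC, and ratios are those of the group mean CPM. Positions are in GRCm39 (GENCODE M39) unless another build is named. For tested neighbors the log2 fold change of oe-AQP1 over oe-NC is given as log2FC, with its standard error and adjusted p where printed.

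The start regions of 44 chosen lncRNAs were found in RefSeq (GRCm38.p6), matched by symbol, chromosome and strand, each as 250 bases before and 50 bases after the annotated start. The core searched was GAAA, then 2 bases of any kind, then GAAA, on both strands, with overlapping matches allowed. It was present in the start region of 3 of the 44 lncRNA genes (6.82%), of 390 of 9533 RefSeq lncRNA genes (4.09%) and of 1079 of 27025 genes of all kinds (3.99%), so the 3 are close to what the background share would give. The letters around the 3 matches are shown in capitals below, read 5′ to 3′ on the strand of the lncRNA. A match on the opposite strand reads as TTTC, 2 bases and TTTC, as in Gm14199.
Gm14199 (GRCm38.p6 chr2:152991746-152991775, - strand; the match starts 134 bases before the start): caagtctctgTTTCTGTTTCatttcaggcc
4930599N23Rik (GRCm38.p6 chr6:39118226-39118255, + strand; 237 bases before the start, opposite Parp12): ggaaggaaacGAAACCGAAAgcgggctccg
Gm26797 (GRCm38.p6 chr9:122310956-122310985, - strand; 47 bases before the start): cggcctgtggGAAATCGAAAccttctgcca

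Whole 300-base start regions follow for 5 chosen lncRNAs that lie in or against a called protein-coding gene and that the text returns to. They are the most abundant of the Sp100 locus, the opposite-strand partners of Oasl1, Nlrc5 and Ly6a, and the lower lncRNA antisense to Nfix. The match by symbol, chromosome and strand did not use position. A RefSeq window can therefore lie away from the GENCODE start of the gene body described here, also beyond the part that is antisense to the coding gene. None of the 5 holds the core, so no letters are in capitals; this says only that these letters are not in this window.
A530040E14Rik (GRCm38.p6 chr1:85105843-85106142, + strand): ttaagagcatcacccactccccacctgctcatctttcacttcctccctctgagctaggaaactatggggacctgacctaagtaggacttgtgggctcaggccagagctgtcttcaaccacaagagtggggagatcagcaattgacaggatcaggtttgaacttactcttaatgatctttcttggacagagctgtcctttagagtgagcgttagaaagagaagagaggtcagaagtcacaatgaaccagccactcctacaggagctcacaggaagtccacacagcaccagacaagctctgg
Gm13822 (GRCm38.p6 chr5:114922212-114922511, - strand): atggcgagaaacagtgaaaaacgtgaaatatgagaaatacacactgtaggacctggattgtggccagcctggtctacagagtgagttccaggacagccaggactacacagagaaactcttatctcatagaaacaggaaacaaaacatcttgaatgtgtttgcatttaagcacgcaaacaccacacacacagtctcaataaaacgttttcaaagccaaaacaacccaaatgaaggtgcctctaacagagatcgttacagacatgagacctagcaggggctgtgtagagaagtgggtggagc
9330175E14Rik (GRCm38.p6 chr8:94435054-94435353, - strand): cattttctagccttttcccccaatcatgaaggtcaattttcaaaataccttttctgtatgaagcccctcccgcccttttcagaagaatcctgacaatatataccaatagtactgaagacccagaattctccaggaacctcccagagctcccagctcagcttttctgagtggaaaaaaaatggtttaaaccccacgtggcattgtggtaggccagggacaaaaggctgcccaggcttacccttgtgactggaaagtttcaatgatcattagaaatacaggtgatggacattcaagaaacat
Gm28068 (GRCm38.p6 chr15:75031921-75032220, + strand): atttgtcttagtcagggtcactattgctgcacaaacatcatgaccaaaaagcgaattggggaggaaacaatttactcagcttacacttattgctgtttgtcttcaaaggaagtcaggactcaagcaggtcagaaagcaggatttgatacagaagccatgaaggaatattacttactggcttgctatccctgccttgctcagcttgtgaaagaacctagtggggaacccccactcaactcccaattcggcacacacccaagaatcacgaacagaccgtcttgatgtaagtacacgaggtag
G430095P16Rik (GRCm38.p6 chr8:84722807-84723106, + strand): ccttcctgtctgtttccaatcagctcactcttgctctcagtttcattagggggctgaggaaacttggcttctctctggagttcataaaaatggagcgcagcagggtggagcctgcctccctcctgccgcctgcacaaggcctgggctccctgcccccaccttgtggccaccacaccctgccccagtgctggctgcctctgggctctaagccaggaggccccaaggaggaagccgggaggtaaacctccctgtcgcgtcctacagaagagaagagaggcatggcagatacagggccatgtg

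Among the 168 higher lncRNAs the ratio ranged from 2.0 to 66.8, with a median of 2.7 that includes 2 genes at 0 in all oe-NC samples. The ratio was at least 3 for 76, at least 4 for 52 and at least 10 for 16 of them. The mean count in the higher group ranged from 20 to 6849 with a median of 52.9; 80 of the 168 were under 50 counts and 14 were over 500. Their summed level was 1864, 1866 and 1864 CPM in the 3 oe-AQP1 samples and 582, 587 and 598 CPM in the 3 oe-NC samples. The 11 lower lncRNAs had ratios of 0.154 to 0.499 and mean counts of 24.6 to 115 in oe-NC, and summed to 13.3, 14.2 and 13.1 CPM against 30.4, 31 and 31.5 CPM. All lncRNAs of the table together took between 2.04% and 2.22% of an oe-NC library and between 2.4% and 2.44% of an oe-AQP1 library.

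**Figure D1:**
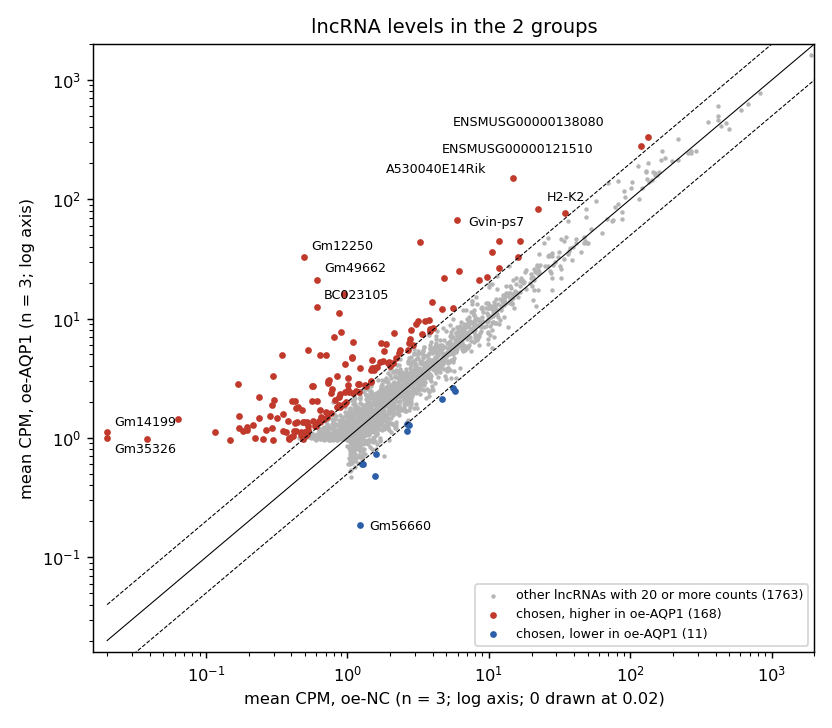
Mean CPM of each lncRNA with 20 or more counts in the higher group, oe-NC on the x axis and oe-AQP1 on the y axis (n = 3 each, log axes; a mean of 0 is drawn at 0.02 CPM); the solid line marks equal levels and the dashed lines a ratio of 2 or 0.5. The 168 chosen higher lncRNAs lie above the upper dashed line, the 11 lower ones below the lower dashed line, and the 1763 others around the diagonal.

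The largest ratios belonged to genes below 1 CPM in every oe-NC sample. Gm12250 (chr11:58074623-58080267, + strand) stood at 34.2, 34.5 and 30.1 CPM against 0.821, 0.267 and 0.3903 CPM, a ratio of 66.8. The gene lies in the immunity-related GTPase cluster, 9.57 kb from Igtp and 10.2 kb from Irgm2, GTPases that act against intracellular pathogens; RefSeq lists the same symbol as protein-coding, and a second entry of that symbol, typed as a pseudogene in the table, overlaps it and rose too (log2FC 3.72 ± 0.44, adjusted p = 1.25e-04). Igtp stood at 212, 217 and 216 CPM against 39.3, 37.8 and 39.4 CPM (log2FC 2.46 ± 0.04, adjusted p = 4.41e-11) and Irgm2 at 259, 256 and 252 CPM against 73.6, 75.9 and 77.03 CPM (log2FC 1.75), while the nearest tested gene, Mrpl22, did not pass (log2FC 0.45). Gm49662 (chr16:36388864-36418859, - strand) stood at 21.9, 20.8 and 20.96 CPM against 0.404, 0.435 and 0.981 CPM, a ratio of 34.97, on whole counts in every sample. No tested protein-coding gene lay within 100 kb of Gm49662, the nearest being Eaf2 at 194 kb (log2FC 0.66). BC023105, near the interferon-inducible GTPase gene Iigp1 on chromosome 18, stood at 11.4, 14.2 and 12.2 CPM against 0.606, 0.587 and 0.623 CPM (ratio 20.8). Iigp1, 46.8 kb away, stood at 308, 307 and 310.03 CPM against 17.5, 20.3 and 21.1 CPM (log2FC 3.96 ± 0.06, adjusted p = 2.73e-11), and the nearest tested gene, Smim3, did not pass (log2FC 0.090). A second entry with the symbol BC023105, typed as a pseudogene, had 0, 2.47 and 17.84 counts against 0, 0.2 and 0.67 counts. Whether reads were divided between the entries was not tested.

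Gm35326 (chr12:97836038-97841438, - strand) had 19, 24 and 19 counts against 0, 0 and 0 counts, and Gm14199 (chr2:152828826-152833551, - strand) had 25, 15 and 29 counts against 0, 0 and 0 counts. With 3 counts per library taken as the floor for the oe-NC samples, Gm35326 was at least 6.56-fold and Gm14199 at least 7.4-fold higher in oe-AQP1. Neither had a called protein-coding gene within 100 kb; Pdrg1, 16.3 kb from Gm14199, did not pass (log2FC 0.024 ± 0.04, adjusted p = 0.689), and Galc, 327 kb from Gm35326, stayed inside the fold threshold (log2FC -0.80 ± 0.04, adjusted p = 1.27e-07). Gm29685 (chr10:107782506-107813695, + strand) had 28, 32 and 29 counts against 1, 0 and 3 counts. Its nearest tested gene, Ppp1r12a at 184 kb, did not pass (log2FC 0.25). Gm49936 had 13.9, 10.8 and 35.99 counts against 0, 2.1 and 0 counts; 61 rounded counts against 2 gave a ratio of 29.2, whose 95% counting interval of 7.75 to 247 leaves out the spread between samples and, as the gene was chosen on these counts, is no test. It overlaps Afdn, a junction scaffold gene (log2FC -0.16). In these 4 genes every oe-NC sample held 3 counts or fewer.

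**Figure D2:**
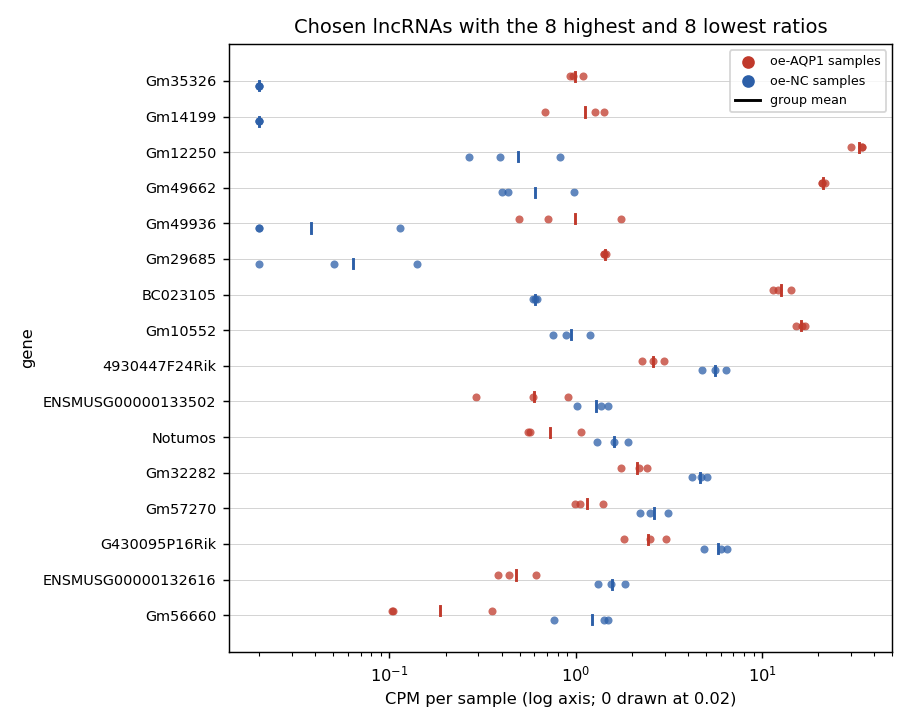
CPM of each sample (log axis; 0 is drawn at 0.02) for the chosen lncRNAs with the 8 highest and the 8 lowest ratios, oe-AQP1 in red and oe-NC in blue, bars at the group means (n = 3). Gm12250 spans 30.1 to 34.5 CPM in oe-AQP1 and 0.267 to 0.821 CPM in oe-NC, and Gm56660 0.103 to 0.355 CPM and 0.762 to 1.49 CPM.

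The densest group lay on chromosome 1 between 85007971 and 85578612 (GRCm39), in and around the Sp100 genes, which encode nuclear body proteins with chromatin-binding domains and are induced by interferons. All 13 lncRNAs there were higher in oe-AQP1, and 9 of the 11 tested protein-coding genes within 100 kb of them rose. A530040E14Rik (chr1:85080984-85254067, + strand) was the most abundant at 152, 148 and 152 CPM against 15.7, 13.2 and 15.3 CPM (ratio 10.2). Gm57169 stood at 43.7, 44.3 and 46.4 CPM against 11.7, 11.4 and 12.5 CPM and Gm2619 at 42.9, 43.2 and 46.2 CPM against 2.73, 3.13 and 3.96 CPM. Gm2619 thus differed by 13.5 times between groups and Gm57169 by 3.78 times. Gm53567 stood at 22.9, 22.96 and 20.3 CPM against 4.73, 4.93 and 4.67 CPM, and Gm10552, which had the largest ratio of the locus at 17.2, at 16.3, 15.3 and 16.98 CPM against 0.887, 1.19 and 0.758 CPM. Gm10553 stood at 7.21, 7.47 and 8.28 CPM against 0.8904, 1.09 and 0.711 CPM, Gm52950 at 5.71, 4.91 and 5.71 CPM against 0.719, 0.346 and 0.511 CPM and Gm17017 at 4.74, 4.09 and 5.16 CPM against 0.948, 1.14 and 1.14 CPM.

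The other 5 lncRNAs of the Sp100 locus were weaker. ENSMUSG00000142042 stood at 3.41, 2.94 and 3.63 CPM against 0.373, 0.154 and 0.368 CPM and Gm16028 at 2.11, 1.92 and 2.05 CPM against 0.577, 0.547 and 0.573 CPM. ENSMUSG00000142292 stood at 2.17, 2.05 and 1.49 CPM against 0.404, 0.218 and 0.253 CPM and ENSMUSG00000141962 at 1.12, 1.17 and 1.55 CPM against 0.192, 0.208 and 0.241 CPM. Gm16025 stood at 0.975, 1.13 and 1.31 CPM against 0.215, 0.109 and 0.225 CPM. In each of the 13 the lowest oe-AQP1 sample exceeded the highest oe-NC sample by the rule, with ratios from 3.58 to 17.2. Among the protein-coding genes, Sp100 stood at 295, 301 and 295 CPM against 57.1, 58.2 and 58.4 CPM (log2FC 2.35 ± 0.04, adjusted p = 2.97e-11), Sp110 at 136, 134 and 132 CPM against 15.3, 13.9 and 14.7 CPM (log2FC 3.18 ± 0.06, adjusted p = 7.42e-11) and Sp140 at 159, 159 and 160.5 CPM against 39.9, 44.5 and 41.1 CPM (log2FC 1.92). Sp140l2, whose annotated body overlaps 8 of the lncRNAs, rose by less (log2FC 1.92) than its neighbors Sp140l1 (log2FC 3.26) and Gm7609 (log2FC 3.74); the differences between these genes were not tested. Gm15433 (log2FC 3.49), Gm52955 (log2FC 3.25) and Gm7582 (log2FC 2.80) also rose. The locus holds near-identical copies: each of the 13 lncRNAs had a stretch of at least 150 bases with at least 95% identity to a transcript of a gene that it does not overlap, and their deposited counts carry fractions, so the share of each copy is uncertain. ENSMUSG00000144196 (46.8, 75.8 and 57.97 counts against 14.4, 8.84 and 21.1 counts) and ENSMUSG00000144199 (33.8, 40.3 and 33.1 counts against 9.15, 8.18 and 11.4 counts), the 2 lncRNAs without a position in the annotation used, had their longest such stretches with A530040E14Rik and Sp140.

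**Figure D3:**
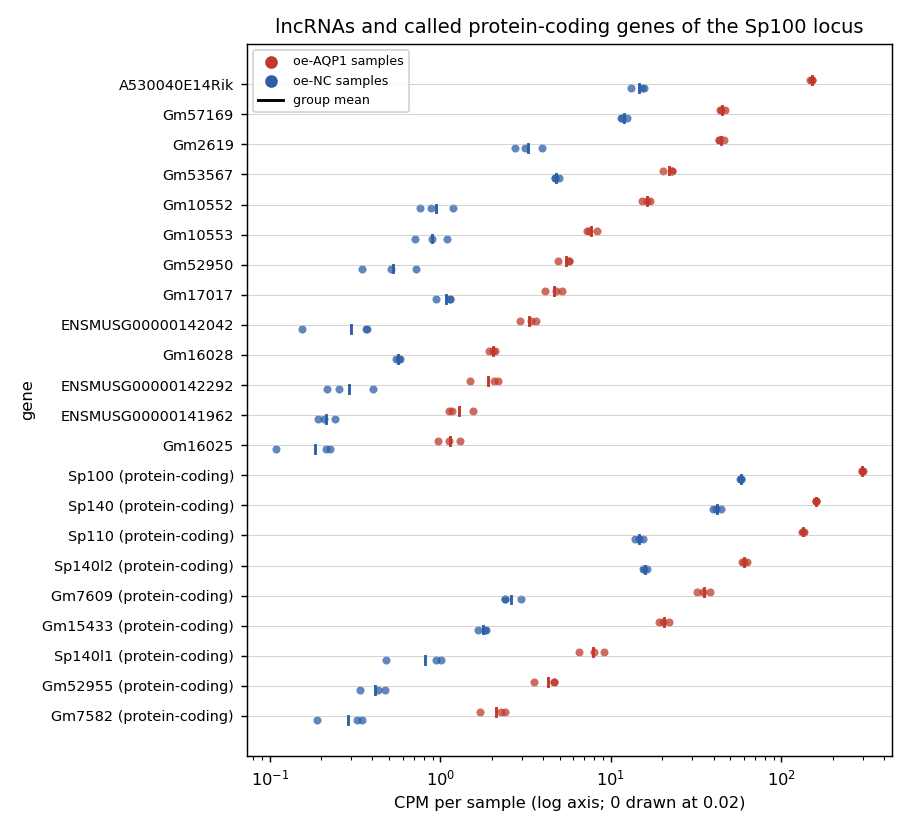
CPM of each sample (log axis) for the 13 chosen lncRNAs and the 9 called protein-coding genes of the Sp100 locus, oe-AQP1 in red and oe-NC in blue, bars at the group means (n = 3). For every gene the 3 red points lie to the right of the 3 blue points, from Gm16025 at 0.975 to 1.31 CPM to Sp100 at 295 to 301 CPM in oe-AQP1.

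Other GTPase and Schlafen clusters carried chosen lncRNAs. ENSMUSG00000142640 (chr11:48761525-48800445, + strand) overlaps Irgm1, a regulator of the immunity-related GTPases, and stood at 4.25, 4.25 and 4.69 CPM against 1.72, 1.69 and 1.96 CPM; Irgm1 stood at 329, 330.1 and 318 CPM against 95.3, 89.9 and 91.4 CPM (log2FC 1.81 ± 0.04, adjusted p = 2.51e-10). ENSMUSG00000139247 overlaps Ifi47, another such GTPase, and Or2v1, and stood at 5.51, 5.53 and 4.36 CPM against 2.302, 2.09 and 2.58 CPM. The 2 coding genes rose by more on the log2 scale, Ifi47 (log2FC 2.82) and the olfactory receptor gene Or2v1 (log2FC 3.37), than the lncRNA (log2FC 1.11 ± 0.17). The difference was not tested. The annotated body of Or2v1 encloses Ifi47 on the same strand, and the Or2v1 counts (145, 162 and 144 in oe-AQP1) are partly fractional. Whether reads of Ifi47 entered them was not tested. Tgtp1 (log2FC 3.58) and Tgtp2 (log2FC 3.23), T-cell-specific GTPases, lie within 100 kb as well. Around these 2 lncRNAs Gm5431 (log2FC 5.39), Gm12185 (log2FC 3.23), 9930111J21Rik2 (log2FC 1.71), 9930111J21Rik1 (log2FC 1.37) and Psme2b (log2FC 1.55) also rose. On chromosome 7, Gvin-ps7 (chr7:106103436-106106935, - strand), a lncRNA entry of the very large inducible GTPase family, stood at 66.1, 69.4 and 64.5 CPM against 6.51, 5.83 and 5.57 CPM, and the overlapping ENSMUSG00000133723 at 7.28, 6.61 and 7.22 CPM against 0.992, 0.326 and 1.08 CPM. The pseudogene entry with the symbol Gvin-ps7 in the same place rose alongside (log2FC 3.35 ± 0.08, adjusted p = 6.34e-10), and no tested protein-coding gene lay within 100 kb of either, the nearest to ENSMUSG00000133723 being Gvin2 of the same family at 438 kb (log2FC 1.26).

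In the Schlafen cluster on chromosome 11, ENSMUSG00000141070 stood at 1.95, 2.16 and 2.17 CPM against 0.455, 0.163 and 0.286 CPM, ENSMUSG00000141112 at 1.59, 2.27 and 1.57 CPM against 0.718, 0.4101 and 0.223 CPM and 1190001M18Rik at 1.01, 1.23 and 1.22 CPM against 0.202, 0.544 and 0.0467 CPM. The first pair runs antisense to Slfn8 (278, 286 and 288 CPM against 56.8, 65.4 and 61.7 CPM; log2FC 2.20 ± 0.05, adjusted p = 3.10e-10). Slfn9 (log2FC 1.84), Slfn2 (log2FC 1.86) and Slfn5 (log2FC 2.47), members of a family that restricts viral replication and cell growth, rose too, so that 4 of the 6 protein-coding genes tested around these lncRNAs were called.

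Gm13822 (chr5:115055374-115061375, - strand) overlaps only the start of Oasl1 (chr5:115061294-115075974, + strand), an oligoadenylate synthetase-like gene. Most of its body lies outside Oasl1. Gm13822 stood at 11.3, 10.8 and 11.2 CPM against 0.707, 0.707 and 1.22 CPM on whole counts. Oasl1 stood at 481, 478 and 478 CPM against 111, 100.2 and 93.4 CPM (log2FC 2.23 ± 0.05, adjusted p = 4.61e-10). Oasl2, 5.08 kb from Gm13822, stood at 638, 649.9 and 649 CPM against 159, 169 and 172 CPM (log2FC 1.94). 9330175E14Rik overlaps only the start of the MHC class I transactivator gene Nlrc5 (log2FC 1.67 ± 0.04, adjusted p = 8.57e-10), on the opposite strand. This lncRNA stood at 3.998, 5.29 and 5.42 CPM against 0.606, 0.816 and 0.701 CPM. 4930599N23Rik, opposite the mono-ADP-ribosyltransferase gene Parp12 (log2FC 2.10), stood at 1.27, 1.32 and 1.07 CPM against 0.101, 0.109 and 0.374 CPM. Dhx58os, antisense to Dhx58 (log2FC 2.44), which encodes the RNA sensor LGP2, had 14.01, 26.02 and 20.02 counts against 1, 2 and 6.02 counts. The ratios of these 4 were 12.7, 6.93, 6.28 and 6.52. ENSMUSG00000125029 overlaps Mlkl, the effector of necroptosis (log2FC 1.19), and stood at 3.89, 3.09 and 4.56 CPM against 1.295, 1.13 and 1.24 CPM. ENSMUSG00000143609 overlaps only the start of the guanylate-binding protein gene Gbp7, on the opposite strand. This lncRNA stood at 5.102, 4.98 and 4.85 CPM against 0.412, 0.472 and 1.03 CPM. All 4 tested coding genes near it rose: Gbp2 (log2FC 3.89 ± 0.06, adjusted p = 1.96e-11), Gbp2b (log2FC 3.80), Gbp3 (log2FC 2.91) and Gbp7 (log2FC 2.42). ENSMUSG00000125368, in the Phf11 cluster of PHD-finger genes, stood at 4.09, 5.03 and 5.68 CPM against 0.4604, 0.381 and 0.187 CPM; Phf11a (log2FC 4.30), Phf11b (log2FC 5.15 ± 0.24, adjusted p = 8.86e-08) and Phf11d (log2FC 3.33) rose, while Rcbtb1, which it overlaps, did not pass (log2FC 0.054).

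Gm45193, overlapping the ISG15 ligase gene Herc6 (log2FC 2.17), stood at 3.46, 3.67 and 2.03 CPM against 0.917, 0.827 and 0.486 CPM. Gm20559, 26.1 kb from the antiviral factor gene Samd9l (log2FC 2.11), stood at 36.7, 35.2 and 36.7 CPM against 9.01, 11.7 and 10.8 CPM. Another 3 lncRNAs lay beside the RNA helicase gene Ddx60 (284, 287 and 301 CPM against 52.6, 57.9 and 58.1 CPM; log2FC 2.36 ± 0.05, adjusted p = 1.53e-10) on chromosome 8. They were ENSMUSG00000138015 at 4.504, 5.24 and 4.63 CPM against 0.455, 1.197 and 1.58 CPM, 4930512H18Rik at 2.74, 2.29 and 3.14 CPM against 0.253, 0.707 and 0.748 CPM and Gm45418 at 1.16, 1.27 and 1.06 CPM against 0.152, 0.109 and 0.327 CPM. Palld, a cytoskeletal gene that 4930512H18Rik overlaps, did not pass (log2FC -0.18). AW011738, 2.35 kb from the ubiquitin-like modifier gene Isg15 (log2FC 1.76), stood at 27.9, 25.8 and 25.4 CPM against 11.6, 12.5 and 11.4 CPM on whole counts. The ratios of these 6 ran from 2.23 to 5.95.

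The H2 region of chromosome 17, the mouse major histocompatibility complex, held 10 chosen lncRNAs, all higher. H2-K2 (chr17:34193607-34198165, - strand), a lncRNA entry of a class I gene, stood at 85.7, 80.5 and 84.2 CPM against 22.4, 20.03 and 23.8 CPM, and a pseudogene entry of the same symbol overlaps it (log2FC 1.71 ± 0.18, adjusted p = 6.80e-05). ENSMUSG00000121510 (chr17:36452636-36457015, - strand), 18.3 kb from H2-T5, stood at 280.2, 284 and 279 CPM against 127, 114 and 113 CPM, the second most counted of the 179. ENSMUSG00000125175, overlapping H2-K1, stood at 9.88, 8.36 and 8.59 CPM against 3.07, 2.65 and 3.39 CPM, and Gm19412, antisense to the peptide-loading gene Tapbp, at 7.89, 7.68 and 8.32 CPM against 2.59, 3.102 and 2.69 CPM. The coding partners were abundant: H2-K1 stood at 1783, 1722 and 1711 CPM against 812, 782 and 813 CPM (log2FC 1.10 ± 0.03, adjusted p = 1.94e-09) and Tapbp at 1087, 1102 and 1083 CPM against 444, 373 and 369.6 CPM (log2FC 1.46 ± 0.06, adjusted p = 3.52e-08). Daxx (log2FC 1.80), a histone chaperone gene, and Smim40 (log2FC 1.34) rose beside them, while Vps52, the tested coding gene nearest to H2-K2, did not pass (log2FC -0.068). Gm15821, antisense to the peptide transporter gene Tap2 (log2FC 1.31), stood at 1.12, 1.33 and 1.17 CPM against 0.101, 0.272 and 0.141 CPM. Tap1 (log2FC 1.98) and the immunoproteasome genes Psmb8 (log2FC 1.58) and Psmb9 (log2FC 2.19) lie within 23.5 kb of it.

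Gm11131 overlaps only the start of the class I gene H2-Q4 (log2FC 1.57), on the opposite strand, and stood at 14.1, 12.8 and 14.5 CPM against 3.803, 4.02 and 4.02 CPM. A930015D03Rik, antisense to H2-T24 (log2FC 3.10), H2-T22 (log2FC 1.71) and H2-T23 (log2FC 1.88), stood at 21.1, 22.7 and 22.4 CPM against 9.53, 9.98 and 9.59 CPM. ENSMUSG00000129282 beside H2-T15 (log2FC 1.26) stood at 2.71, 2.49 and 2.57 CPM against 1.09, 0.703 and 0.5305 CPM; H2-T5 (log2FC 1.01) was just past the fold threshold. H2-Q1 (log2FC 1.26), H2-Q2 (log2FC 1.47) and H2-Q6 (log2FC 1.44) complete the class I neighbors called. ENSMUSG00000129172, antisense to the complement gene C4a (log2FC 1.75), stood at 1.298, 1.48 and 1.59 CPM against 0.455, 0.1197 and 0.1402 CPM, with C4b (log2FC 3.10), Cfb (log2FC 2.98) and C2 (log2FC 1.59), complement components too, above and Slc44a4, a choline transporter-like gene, below (log2FC -1.04 ± 0.25, adjusted p = 0.00944). ENSMUSG00000130316 overlaps H2-D1, which missed the fold threshold (log2FC 0.83), and stood at 1.09, 1.33 and 1.68 CPM against 0.253, 0.764 and 0.4702 CPM; Tnf (16.1, 16.9 and 17.3 CPM against 4.396, 4.51 and 4.67 CPM; log2FC 1.87 ± 0.10, adjusted p = 2.14e-07), the cytokine gene, and Ltb (log2FC 1.02) lie 60.3 and 65.9 kb from it. Class I genes share long stretches of sequence, and the counts of H2-K2, A930015D03Rik and ENSMUSG00000121510 carry fractions.

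Chemokine, Ly6 and other immune neighbors made up a further group. Gm31522, 0.285 kb from the monocyte chemokine gene Ccl2, stood at 3.28, 4.56 and 3.62 CPM against 1.602, 1.36 and 1.496 CPM and Gm11419 at 1.37, 1.37 and 0.879 CPM against 0.3204, 0.272 and 0.2804 CPM. Ccl2 stood at 626, 619 and 614 CPM against 95.3, 103 and 106 CPM (log2FC 2.60 ± 0.04, adjusted p = 3.03e-11) and Ccl7 at 1.37, 0.639 and 0.831 CPM against 0.253, 0.435 and 0.0467 CPM (log2FC 2.17). In the Ly6 cluster, which encodes GPI-anchored surface proteins, Gm28068 (chr15:74860484-74915705, + strand) stood at 3.59, 4.24 and 4.64 CPM against 0.707, 1.09 and 1.07 CPM, ENSMUSG00000131024 at 2.08, 2.49 and 2.601 CPM against 1.001, 1.07 and 1.19 CPM and Gm39556 at 1.01, 1.004 and 1.16 CPM against 0.707, 0.381 and 0.327 CPM. All 4 tested coding genes there rose, Ly6a (291, 293 and 295 CPM against 16.5, 16.4 and 17.6 CPM; log2FC 4.10 ± 0.05, adjusted p = 6.77e-12), Ly6i (log2FC 3.90), Ly6c1 (log2FC 2.16) and Ly6e (log2FC 1.09), and Ly6a by more than its antisense partner Gm28068 (log2 fold change 2.10 ± 0.23; the difference was not tested). 2310001H17Rik, antisense to the C-type lectin gene Clec2d (log2FC 2.69) and 27.3 kb from Cd69 (log2FC 1.85), stood at 9.42, 9.75 and 9.6997 CPM against 3.198, 3.13 and 3.07 CPM. ENSMUSG00000135280, inside Cd47 on the same strand (log2FC 1.23), which encodes a ligand that restrains phagocytosis, stood at 2.13, 2.19 and 2.25 CPM against 0.354, 0.218 and 0.1402 CPM. ENSMUSG00000141161, 22.8 kb from the NF-κB inhibitor gene Nfkbia (log2FC 1.13), stood at 0.911, 1.32 and 1.12 CPM against 0.202, 0.0544 and 0.0935 CPM, and Gm56713, near Apol7a (log2FC 1.53) and Apol9a (log2FC 1.13), at 1.67, 1.69 and 1.17 CPM against 0.152, 0.326 and 0.374 CPM.

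Other chosen lncRNAs lay in or near called genes outside these families. Gm13583, antisense to the phospholipase receptor gene Pla2r1 (log2FC 1.18), stood at 13.2, 11.5 and 12.05 CPM against 5.998, 4.999 and 5.75 CPM; Itgb6, an integrin gene 44.4 kb away, fell (log2FC -1.06 ± 0.15, adjusted p = 5.46e-04). Gm26670 overlaps Rd3 (log2FC 2.00) and stood at 2.49, 2.87 and 2.77 CPM against 1.39, 1.696 and 0.967 CPM. ENSMUSG00000138312 stood at 0.907, 1.25 and 1.24 CPM against 0.354, 0.272 and 0.422 CPM, 8.39 kb from the aldo-keto reductase gene Akr1c14, which rose (log2FC 3.21), and 92 kb from Akr1c18 of the same family, which fell (log2FC -1.22 ± 0.17, adjusted p = 3.41e-04). A730011C13Rik, 49.5 kb from the selenium-binding protein gene Selenbp1, which fell (log2FC -1.05 ± 0.06, adjusted p = 3.13e-07), stood at 6.64, 5.75 and 6.69 CPM against 1.01, 1.31 and 0.981 CPM. BC037039 overlaps several tested protocadherin genes and stood at 3.22, 3.27 and 2.397 CPM against 1.68, 1.47 and 1.23 CPM. Of 11 tested coding genes within 100 kb of it, 1 was called, Pcdhga5 (log2FC 1.27). The other overlapped ones did not pass, among them Pcdhga12 (log2FC 0.35), Pcdhgc3 (log2FC -0.066) and Pcdhga4 (log2FC -0.69). Pcdhga5 stood at 1.33, 1.07 and 1.06 CPM against 0.362, 0.311 and 0.745 CPM. Gm56727, which overlaps Maff (log2FC -0.34) 1.54 kb from Tmem184b (log2FC 1.15), stood at 1.02, 1.71 and 1.05 CPM against 0.5498, 0.573 and 0.659 CPM. ENSMUSG00000138401 overlaps the called pseudogene Gm6445 (log2FC 2.05 ± 0.28, adjusted p = 3.61e-04) and stood at 1.67, 1.597 and 1.47 CPM against 0.253, 0.326 and 0.469 CPM, with the nearest tested coding gene, Incenp, 262 kb away (log2FC -0.025).

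The most counted of the 179 was ENSMUSG00000138080 (chr5:92690902-92699275, - strand), at 327, 336 and 328 CPM against 129.9, 132 and 134 CPM, a ratio of 2.501. Per kilobase of exon it reached 108 CPM in oe-AQP1, against 140.1 for ENSMUSG00000121510, 30.3 for A530040E14Rik and 16.5 for Gm12250. Neither of the 2 tested coding genes within 100 kb was called; Scarb2, a lysosomal membrane protein gene 36.2 kb away, was the nearer (log2FC 0.41). A stretch of 2796 bases of ENSMUSG00000138080 is near-identical to a transcript of Aptx on another chromosome, and its counts carry fractions. ENSMUSG00000123342 (chr11:86702652-86761774, - strand) stood at 75.1, 74.5 and 78.9 CPM against 31.9, 34.5 and 37.2 CPM, 4.08 kb from Dhx40 (log2FC 0.0049), and also shares such stretches with other genes.

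Pairs of chosen lncRNAs lay together in 4 further places, 3 of them with no called coding gene within 100 kb. Gm35551 (1.42, 1.41 and 1.71 CPM against 0.152, 0.272 and 0.0935 CPM) and 4933433H22Rik (2.68, 2.01 and 2.25 CPM against 0.707, 0.925 and 1.03 CPM) overlap each other on opposite strands, the nearest tested gene being Zfp36l2 (log2FC 0.11), which encodes an RNA-decay protein. 2310034O05Rik (5.56, 5.25 and 5.64 CPM against 2.45, 1.89 and 2.71 CPM) and Gm57308 (2.06, 2.63 and 2.63 CPM against 1.01, 0.939 and 1.68 CPM) overlap likewise; Enoph1 (log2FC -0.20) and Sec31a (log2FC -0.10) lie over 100 kb away. Gm54310 (1.06, 0.821 and 1.12 CPM against 0.152, 0.326 and 0.187 CPM) overlaps the forkhead factor gene Foxk1 (log2FC 0.18), and Gm57287 (1.01, 1.55 and 1.56 CPM against 0.556, 0.435 and 0.1402 CPM) lies 32.8 kb from it. In the histone cluster of chromosome 3, Gm42743 was higher (1.29, 1.48 and 1.74 CPM against 0.738, 0.699 and 0.725 CPM) and Gm20632, 0.499 times its oe-NC level, lower (1.02, 1.296 and 1.59 CPM against 2.91, 2.53 and 2.41 CPM). The histone genes H3c13 (log2FC 1.47), which Gm42743 overlaps, and H4c14 (log2FC 1.61) rose there, and H2ac19, which Gm20632 overlaps, did not pass (log2FC 0.017). Gm42743 and Gm20632 were the 1 joined pair that stood on opposite sides; Gm42743 itself, at a log2 fold change of 0.99 ± 0.24, was not called.

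A smaller group of chosen lncRNAs had symbols other than Gm numbers, Rik clone names and accession-like names. Pantr2, which overlaps the neural transcription factor gene Pou3f3 (log2FC -0.36), stood at 1.52, 2.01 and 1.77 CPM against 0.505, 0.272 and 0.514 CPM. Lexis1, a lncRNA of hepatic cholesterol metabolism 45.2 kb from Abca1 (log2FC 0.47), stood at 2.08, 1.82 and 2.101 CPM against 1.06, 1.14 and 0.748 CPM, and Zeb2os, antisense to the mesenchymal regulator gene Zeb2 (log2FC 0.39), at 1.47, 1.73 and 2.39 CPM against 0.707, 0.816 and 1.07 CPM. Phtf1os, overlapping Rsbn1 (log2FC 0.13), stood at 9.197, 8.08 and 7.09 CPM against 3.15, 4.37 and 3.91 CPM and Srrm4os, overlapping the splicing factor gene Srrm4 (log2FC 0.21), at 1.72, 1.09 and 1.22 CPM against 0.657, 0.707 and 0.561 CPM. All 5 had ratios between 2.03 and 4.10. Cfhr3 (0.661, 1.15 and 1.55 CPM against 0.2997, 0.434 and 0.368 CPM; nearest Aspm, log2FC -0.15), Speer6-ps1 (4.04, 4.804 and 4.58 CPM against 1.17, 1.87 and 1.44 CPM; Gdi2 at 346 kb, log2FC -0.19) and Pdxk-ps (1.27, 1.46 and 1.32 CPM against 0.556, 0.435 and 0.561 CPM; Rrp1b, log2FC 0.074) are lncRNA entries that share a symbol with a pseudogene entry at 0 in all 6 samples. RefSeq types Cfhr3, a complement factor H-related gene, as protein-coding.

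All 11 lower lncRNAs were at or under 115 mean counts. Gm56660 (chr19:8751854-8753150, + strand) had the lowest ratio, 0.154, at 0.103, 0.355 and 0.105 CPM against 1.41, 0.762 and 1.49 CPM. It overlaps Taf6l (log2FC 0.057), and Gng3, a G-protein subunit gene 58.9 kb away, fell (log2FC -1.04 ± 0.18, adjusted p = 0.00159). ENSMUSG00000132616, overlapping the death-receptor adaptor gene Fadd (log2FC -0.0033), stood at 0.384, 0.4402 and 0.613 CPM against 1.32, 1.56 and 1.83 CPM. G430095P16Rik (chr8:85449593-85453478, + strand) stood at 3.04, 2.51 and 1.81 CPM against 4.902, 6.496 and 5.98 CPM, while Nfix, the transcription factor gene it is antisense to, stood at 117, 112 and 113 CPM against 63.4, 48.9 and 49.96 CPM and rose (log2FC 1.07 ± 0.08, adjusted p = 5.85e-06). Gm57270 stood at 0.995, 1.06 and 1.39 CPM against 2.51, 2.22 and 3.13 CPM (nearest Tnrc18, log2FC -0.22), and Gm32282, antisense to the kidney-expressed gene Crim1 (log2FC -0.56), at 2.18, 2.42 and 1.76 CPM against 4.19, 5.06 and 4.72 CPM. Notumos stood at 0.553, 0.566 and 1.07 CPM against 1.902, 1.603 and 1.29 CPM; Notum, the Wnt-inactivating hydrolase gene it overlaps, stayed inside the fold threshold (log2FC -0.94 ± 0.18, adjusted p = 0.00253). ENSMUSG00000133502, overlapping the kinesin gene Kif5a (log2FC 0.22), stood at 0.911, 0.593 and 0.293 CPM against 1.01, 1.36 and 1.496 CPM and 4930447F24Rik, overlapping Bsn (log2FC 0.069), at 2.28, 2.97 and 2.59 CPM against 6.37, 4.73 and 5.61 CPM. B230208H11Rik stood at 1.37, 1.28 and 1.22 CPM against 2.63, 3.15 and 2.43 CPM, 14.95 kb from Stx11 (log2FC 0.014). B930094E09Rik, overlapping Slc25a46, had 8.89, 15.8 and 13.3 counts against 24.2, 27.6 and 22.9 counts. Of these 11, 3 had a called coding gene within 100 kb, and 1 of those genes, Nfix, overlapped.

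Several chosen lncRNAs, some of them among the more abundant, had no called coding gene nearby. ENSMUSG00000121382 stood at 42.8, 43.5 and 46.9 CPM against 16.8, 16.97 and 15.8 CPM, with the phosphatase subunit gene Ppp2ca nearest (log2FC 0.15). ENSMUSG00000134831 stood at 32.1, 34.4 and 31.9 CPM against 14.05, 17.4 and 16.6 CPM on whole counts (nearest Pigp, log2FC -0.026), and 9530082P21Rik at 25.3, 24.2 and 25.6 CPM against 6.26, 5.67 and 6.54 CPM (overlapping Flywch1, log2FC -0.14). Gm14010 (57, 58 and 59 counts against 2, 4 and 4 counts; ratio 16.6) lies within Morrbid, a lncRNA gene known for regulating Bcl2l11 in myeloid cells, on the opposite strand, and Morrbid stayed inside the fold threshold (log2FC 0.90 ± 0.11, adjusted p = 2.08e-04). Gm26797, which holds the match printed above, stood at 2.88, 2.83 and 3.22 CPM against 0.404, 0.979 and 0.795 CPM, beside Ano10 (log2FC 0.045). The 93 chosen lncRNAs outside the naming rule, of which B930094E09Rik is the 1 lower, had mean counts of 20 to 919, and the ratios of the higher ones ran from 2.0 to 16.6 with a median of 2.48. A called coding gene lay within 100 kb of 7 of the 93, against 150 of 1756 (8.54%) lncRNAs with 20 counts that were not chosen. The naming rule had already taken those that overlap a called gene, so a low count here was partly fixed beforehand. The 7 chosen lncRNAs that were not called had ratios of 2.0 to 2.22 and log2 fold changes of 0.93 to 1.03.

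Counts of called genes were then taken over the surroundings of all 179. Of 553 tested protein-coding genes within 100 kb, 91 were called (16.5%), 86 higher and 5 lower, against 4.27% of all 11847 and 146 of 4355 (3.35%) around the 1763 lncRNAs with 20 counts that were not chosen. The median log2 fold change of the 553 was 0.047, against -0.017 over all protein-coding genes. Without the fold threshold 252 of the 553 passed (45.6%), 156 higher and 96 lower, against 36.5% of all protein-coding genes. The share fell with distance, from 37 of 99 genes whose bodies overlap a chosen lncRNA (37.4%) to 41 of 256 within 50 kb (16%), 13 of 198 at 50 to 100 kb (6.57%) and 42 of 1126 at 100 to 500 kb (3.73%). Around the other lncRNAs the same shares were 2.54%, 2.85%, 5.0% and 4.57%. These shares are a description: neighbors share clusters and, where they overlap, reads, and no test of the difference was made. Without neighbors that overlap a chosen lncRNA 54 of 454 were called (11.9%), without those that share exon bases or near-identical stretches 48 of 444 (10.8%), and without the Sp100 locus and the H2 region 58 of 478 (12.1%). Without oe-NC replicate 1 the count was 90 of 553 (16.3%).

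**Figure D4:**
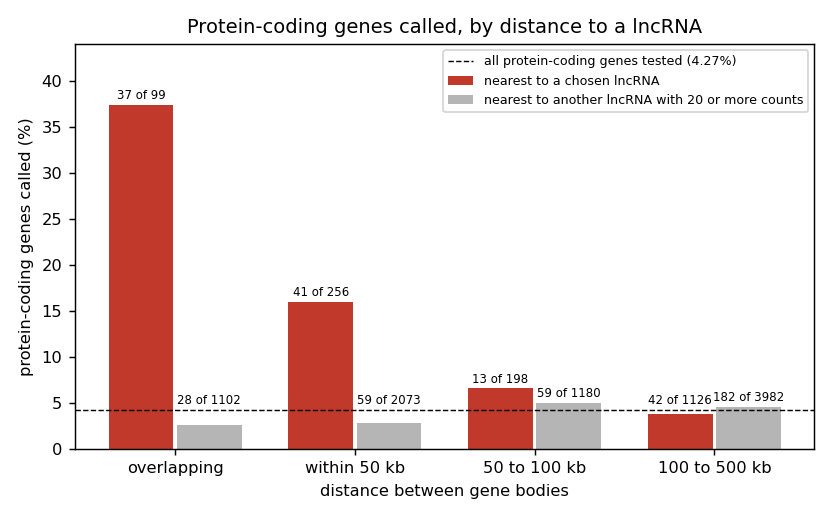
Share of tested protein-coding genes that were called (%), by the distance of the gene body to the closest chosen lncRNA (red) or to the closest other lncRNA with 20 or more counts (gray), with the share among all tested protein-coding genes as a dashed line (4.27%); the numbers above the bars are genes called and tested. The red bars fall from 37.4% for overlapping genes to 3.73% at 100 to 500 kb.

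Of the 177 chosen lncRNAs with a position, 62 (35.0%) had a called protein-coding gene within 100 kb and 37 (20.9%) overlapped one, against 150 (8.54%) and 26 (1.48%) of 1756 other lncRNAs. The 177 fell into 149 places when those within 100 kb of each other were joined, and 38 of the 149 (25.5%) had a called coding neighbor. Of the 91 called neighbors 43 were on a list of 146 interferon-stimulated genes, of which 120 of 129 tested were called, 119 higher; the list was written with earlier results of these data known. Of the chosen lncRNAs 36 (20.3%) had such a gene within 100 kb, against 29 (1.65%) of the others. The nearest tested coding gene within 100 kb could be given for 153 lncRNAs. It was called for 36 of the 84 that overlap it and for 14 of the 69 that do not, in every case higher. Counted once per gene, 38 of 138 nearest genes were called, all of them higher. Where both were called, 48 pairs moved the same way and 1, G430095P16Rik and Nfix, moved apart. The rule took 168 higher and 11 lower lncRNAs, and of the called protein-coding genes 406 were higher and 100 lower. Agreement in direction was therefore largely fixed beforehand, and overlapping pairs may share reads. Of the 84 overlaps, 77 were on opposite strands. No share of the other lncRNAs stands beside these counts of nearest genes.

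**Figure D5:**
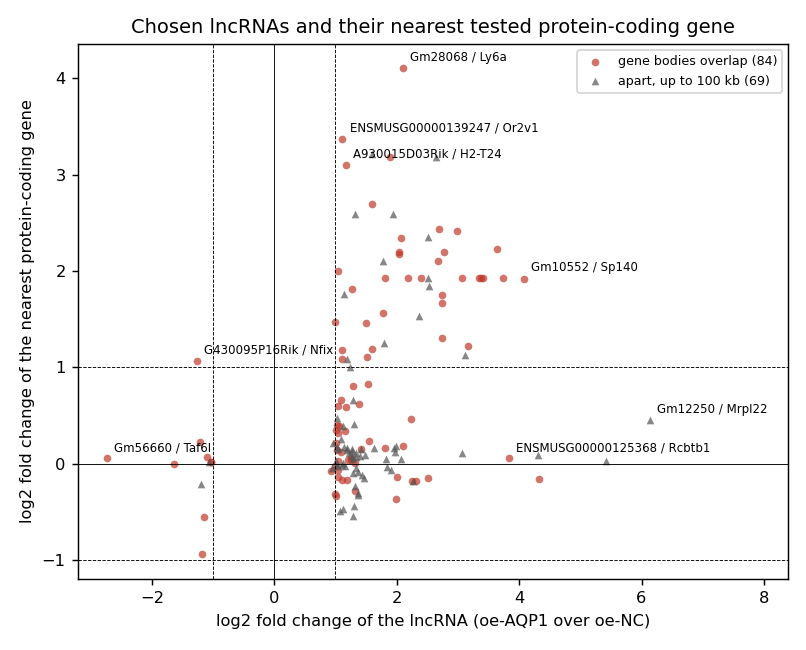
Log2 fold change (oe-AQP1 over oe-NC, limma-voom) of each chosen lncRNA on the x axis and of its nearest tested protein-coding gene within 100 kb on the y axis, 84 pairs with overlapping gene bodies as red circles and 69 pairs apart as gray triangles; dashed lines mark -1 and 1. Most pairs lie near 0 on the y axis, a group lies in the upper right, and G430095P16Rik with Nfix lies alone in the upper left.

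Some properties that the rule did not use were set beside those of the other lncRNAs with 20 counts. The median exonic length was 2170 bases against 2663 bases, 35.2% against 29.8% had no symbol, and 31.3% against 30.9% had whole counts, within 0.01, in all 6 samples. Shared exon bases and near-identical stretches were looked for in the 179 alone, so no share of the other lncRNAs stands beside these counts. Exon bases were shared with another gene by 126 of the 179, with a protein-coding gene by 72. The kit named in the labels, TruSeq RNA Sample Prep, is not stated to keep the strand, and no strand setting of the counting is given in the sources used here. Reads from the bases where opposite-strand partners such as Gm13822 and Oasl1 overlap therefore cannot be told apart. A near-identical stretch with a gene that does not overlap was found for 74. A total of 28 had neither, 27 of them higher, among them AW011738, Gm29685, Gm35326, ENSMUSG00000135280 and Gm56713, with values above.

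Well-known lncRNAs were not among the 179. Of 73 names on a list of such genes 40 were tested, and 1 was called, against 237 of all 2826 lncRNAs tested (8.39%). It was Bc1, a small cytoplasmic RNA at 10, 12 and 17 counts against 1, 5 and 4.99 counts, under the count minimum. At an adjusted p under 0.05 without a fold threshold 13 of the 40 were higher and 4 lower, against 438 higher and 101 lower (19.1% in all) of the 2826 lncRNAs tested. By that measure a larger share of the 40 than of the 2826 passed. At the limits of the rule, Gm35520 was taken with a ratio of 2.0008 and ENSMUSG00000134510 was not, with 1.9992. Gm20632 was taken at 0.499 and Gm31786 was not, at 0.505. 6430710C18Rik was taken with a mean count of 20, and Gm35417, with 19.8 counts in oe-AQP1 and 0 in all oe-NC samples, was not.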

How the data were processed

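RNA-seq of 6 RENCA samples was analysed from 1 deposited table of expected counts, which the authors made from paired-end reads and whose values are not all whole. The sources name both GRCm39 and GRCm38 or mm10 as the build, and fastp, HISAT2, featureCounts and Subread without versions; the strand setting of the counting is not given in the sources used here. Of 78298 gene identifiers 78168 had a position in GENCODE M39 (GRCm39), from which positions and distances were taken. The table's 2 columns of group means by the authors were not used.

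The lncRNAs and all gene lists were chosen with earlier results of these data known. Values in every sample are given for the 8 highest and 8 lowest ratios, the 6 most counted higher and 6 most counted lower lncRNAs, those with a symbol other than a Gm number, clone or accession-like name, those within 100 kb of another and those overlapping a called gene. The nearest protein-coding gene to each, and every called one within 100 kb of any of the 179, are named too. The other chosen lncRNAs named beside such genes, the lncRNAs over 500 counts and Gm14010, Gm26797, B930094E09Rik, ENSMUSG00000144196 and ENSMUSG00000144199 were picked after their values were seen. Entries that share a symbol were matched by gene identifier.

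Counts were rounded, filtered with filterByExpr of edgeR 4.0.16, scaled by TMM and fitted with limma-voom (limma 3.58.1, R 4.3.3) over all 6 samples with no covariate; p-values were adjusted by Benjamini-Hochberg over all genes tested. The steps were tested on simulated data. Library totals of 18385714 to 21920899 counts put 3 counts at 0.137 to 0.163 CPM; the floor of 3 counts is per library, and it and the counting interval (exact, 95%) cover counting error only. Gene overlaps were found with bedtools 2.31.1 and near-identical stretches (at least 95% identity over at least 150 bases) with BLAST+ 2.17.0. Alternatives were the edgeR quasi-likelihood test, DESeq2 1.42.0, other scalings and filters, unrounded counts, a replicate block, other thresholds and windows, and leaving out each sample.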

Additional observations from a re-analysis of the deposited data

How the results depend on the processing

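Of 2428 recomputed log2 fold changes of 177 named genes, 2362 kept direction and side of the threshold, 60 fell inside it, 6 moved past it and 0 changed sign. The edgeR test called 804 genes, 237 lncRNAs and 91 neighbors and DESeq2 705, 187 and 91. Without a low-count filter 385 lncRNAs were called (of 13078 tested), and with at least 10 counts in every sample 103 lncRNAs (96 higher, 7 lower; 2001 tested) and 482 genes (416 higher, 66 lower; 14006 tested); the cause was not tested. At adjusted p under 0.05 with no fold threshold 539 lncRNAs, 252 neighbors (156 higher, 96 lower) and 5050 genes (2481 higher, 2569 lower) were called. Of the neighbors 38 of 138 were called when 1 nearest gene per lncRNA was kept, 54 of 454 without overlaps, 48 of 444 without shared sequence and 58 of 478 without the Sp100 locus and H2 region; the last pair were chosen after seeing the data. The rule took 308 lncRNAs at a mean count of 10, 94 at 50, 399 at a ratio of 1.5, 78 at 3, 56 with whole counts and 28 without exon overlap or near-identical stretches, the last also added after seeing the data. Leaving out 1 sample gave 765 to 891 genes, 218 to 260 lncRNAs, 87 to 92 neighbors and 182 to 208 lncRNAs by the rule, 155 to 169 of them among the 179 (168 to 190 higher, 14 to 23 lower, against 168 and 11); of the lncRNAs called, 199 to 224 were higher and 19 to 39 lower, against 216 and 21; the highest gene and lncRNA counts were without oe-NC replicate 1. Same-numbered samples did not deviate together (correlations -0.0005, 0.016 and -0.053). The labels do not say whether the replicate numbers pair the samples, and these correlations cannot settle it. With a replicate block 786 genes, 226 lncRNAs and 91 neighbors were called.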

Other observations

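A further 65 lncRNAs were called in the limma-voom fit without meeting the rule, 55 higher and 10 lower, and 63 of them were under 20 mean counts. Gm35417, just under the count minimum, had 11.02, 32.2 and 16.3 counts against 0, 0 and 0 counts. Gm6034, in the H2-T cluster 4.51 kb from A930015D03Rik, had 20, 14.8 and 23 counts against 1.15, 1 and 3 counts (log2FC 3.21 ± 0.46, adjusted p = 4.81e-04 by limma-voom). ENSMUSG00000135067, 53.6 kb from ENSMUSG00000135280 near Cd47, had 22, 20 and 15.8 counts against 1, 2 and 2 counts.

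Of the noncoding, pseudogene and loss-of-function entries within 100 kb of the chosen lncRNAs and not among the 179, 23 were called, all 23 higher. The number of such entries tested was not taken, so no share stands beside the 23. Of all 812 genes called, 681 were higher, and several of the 23 overlap a chosen lncRNA. They included an entry of the guanylate-binding protein gene Gbp5 that ENSMUSG00000143609 overlaps (log2FC 3.63 ± 0.11, adjusted p = 2.14e-09 by limma-voom), the Phf11 pseudogene entry that ENSMUSG00000125368 overlaps (log2FC 3.50 ± 0.61, adjusted p = 0.001599), Sp110-ps1 in the Sp100 locus (log2FC 1.96 ± 0.30, adjusted p = 7.44e-04) and Gm43197, which Gm20559 overlaps (log2FC 1.45 ± 0.14, adjusted p = 2.46e-05). Annotated miRNA genes lay inside 2 of the chosen lncRNAs, Gm54987 in Gm20632 and Gm55299 in 2310001H17Rik; no mature miRNA was measured here.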
